A study of Rattus norvegicus with 6 samples.

Results

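The 247 genes described here are solute carriers of rat Schwann cells, which are the glia that ensheathe peripheral axons. These carriers move metals, inorganic ions, sulfate, sugars, nucleosides, vitamins, lipid precursors and mitochondrial metabolites. They were chosen by symbol alone, among 17327 genes in the count files. Every gene written as Slc, a family number, the letter a and a member number was taken. The amino acid carrier families Slc1, Slc3, Slc6, Slc7, Slc36, Slc38 and Slc43 were left out, as were the glucose carriers Slc2a1 and Slc2a3, the lactate carriers Slc16a1, Slc16a3 and Slc16a7 and the iron carriers Slc40a1 and Slc11a2. The rule left 41 families and set aside 65 other carriers of the same symbol form. The rule itself uses no measured value, but it was set with earlier results of these data known.

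Solute carriers are membrane proteins that move small molecules either down their own gradient or by coupling to the gradient of another ion. Most sit in the plasma membrane, while the Slc25 family lies in the inner mitochondrial membrane and the Slc35 family in the Golgi apparatus and endoplasmic reticulum. In glia they set the supply of ions, metals and precursors of lipids and sugars on which membrane growth and the control of cell volume depend. Neuregulin 1 (NRG1) is the growth factor that Schwann cells receive from axons through ErbB receptors.

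Primary Schwann cells from the sciatic nerves of adult Wistar rats were starved for 18 h in medium with 2% serum and the cAMP-raising compound forskolin at 10 μM. A stimulation of 6 h followed, with soluble NRG1β1 at 10 nM or with the vehicle (PBS with albumin), here called mock, in the same medium, so forskolin was present in both groups. The medium used before starvation contained forskolin and, by the labels, glial growth factor, so all cells had met a neuregulin earlier. Poly(A) RNA was sequenced from 3 independent cultures, each of which gave 1 mock and 1 NRG1 sample, and the question asked of the carriers was which of them NRG1 regulated early. Counts on genes summed to between 6821590 and 15475018 per library, of which the members held 0.792% to 0.964%.

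Culture 1 stood apart from cultures 2 and 3. The Schwann cell markers, of which 7 of 8 listed genes are in the files, summed to 5485 CPM (the usual counts scaled to library size, here with TMM factors) in culture 1 on average over its mock and NRG1 samples, against 14339 and 14514 in cultures 2 and 3. The 7 fibroblast markers summed to 55579, 18017 and 14001 CPM in cultures 1, 2 and 3, and the 4 markers of smooth muscle and pericytes to 1881, 5.53 and 4.01 CPM. The fibroblast markers Dcn and Thy1 and the pericyte marker Rgs5 had 0 counts in cultures 2 and 3, whereas Dcn had 4574 and 3203 counts in the mock and NRG1 samples of culture 1. Other genes of these lists did not follow. Col1a1 had 119349 to 240687 counts in every library and made up most of the fibroblast sum in cultures 2 and 3. Fbln1 had 59 and 58 counts in culture 1, 36 and 27 in culture 2 and 99 and 83 in culture 3. Des had 1 to 4 counts per library. Over conditions the fibroblast sum ranged from 14071 to 53432 CPM in mock and from 13696 to 57726 in NRG1 samples. The leukocyte marker Ptprc, the endothelial markers Pecam1 and Cdh5 and both mast cell markers were at 0 in every sample. Other genes of these lists were detected, the endothelial marker Tek with 44 to 136 counts per library and the leukocyte marker Cd68 with 15 to 57. The leukocyte marker Cd14 had 58 and 40 counts in the mock and NRG1 samples of culture 1 and 2 to 5 in cultures 2 and 3. The Schwann cell markers S100b and Cdh19 were among those that fell with NRG1, with log2 fold changes of −0.58 and −1.10. The part of cell composition in the results below was not tested, and in bulk RNA fewer cells of a type and less RNA per cell cannot be told apart.

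Of the 247 carriers, 40 had no count in any sample and 82 had too few counts to be tested, which left 125 members of 34 families among 9740 tested genes. NRG1 was compared with mock within cultures by the quasi-likelihood test of edgeR with the culture as a block, and all adjusted p-values are Benjamini-Hochberg values over the 9740 genes. Past an adjusted p of 0.01 with a change of more than 2-fold, 2 members were down-regulated, the sulfate carrier Slc26a2 and the endosomal sodium/proton exchanger Slc9a9. These are 1.6% of the tested members, where 1.91% of all genes passed in that direction and 3.47% in either. In the opposite direction 0 members passed, against 1.56% of all genes. With edgeR 1 of the 125 members, the organic anion carrier Slc17a3, was more than 2-fold higher at an unadjusted p under 0.05, beside 170 of the 9740 genes. It had 2 to 27 counts per library and an adjusted p of 0.0827. Past both thresholds DESeq2 also called 0 members in this direction, beside 1.44% of all genes. 

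By the adjusted p alone, 6 members rose and 7 fell, which is 4.8% and 5.6% of those tested, beside 6.31% and 5.51% of all genes. The 13 members were 10.4% of the carriers against 11.8% of all genes in either direction, so the share of regulated carriers lay near that of the transcriptome. The risers were the zinc carriers Slc39a10 and Slc39a14, Slc16a13, the ADP/ATP carrier Slc25a5, the potassium-chloride cotransporter Slc12a7 and Slc35a4. The genes that fell included Slc26a2, Slc9a9, the inositol carrier Slc2a13, the choline transporter-like gene Slc44a2, the mitochondrial carrier Slc25a23 and Slc35a5. All 13 moved the same way in the 3 cultures. A further 17 members had adjusted p-values between 0.01 and 0.05, 7 of them with positive and 10 with negative changes, which is 13.6% of the members beside 11.4% of all genes. Over the 125 tested members, 81 (64.8%) had a negative log2 fold change, where 52.8% of all genes did, and the median was −0.12 beside −0.03. The members left out by the rule, of which 32 were tested, gave 7 risers and 1 gene that fell, with a median of 0.30.

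**Figure D1:**
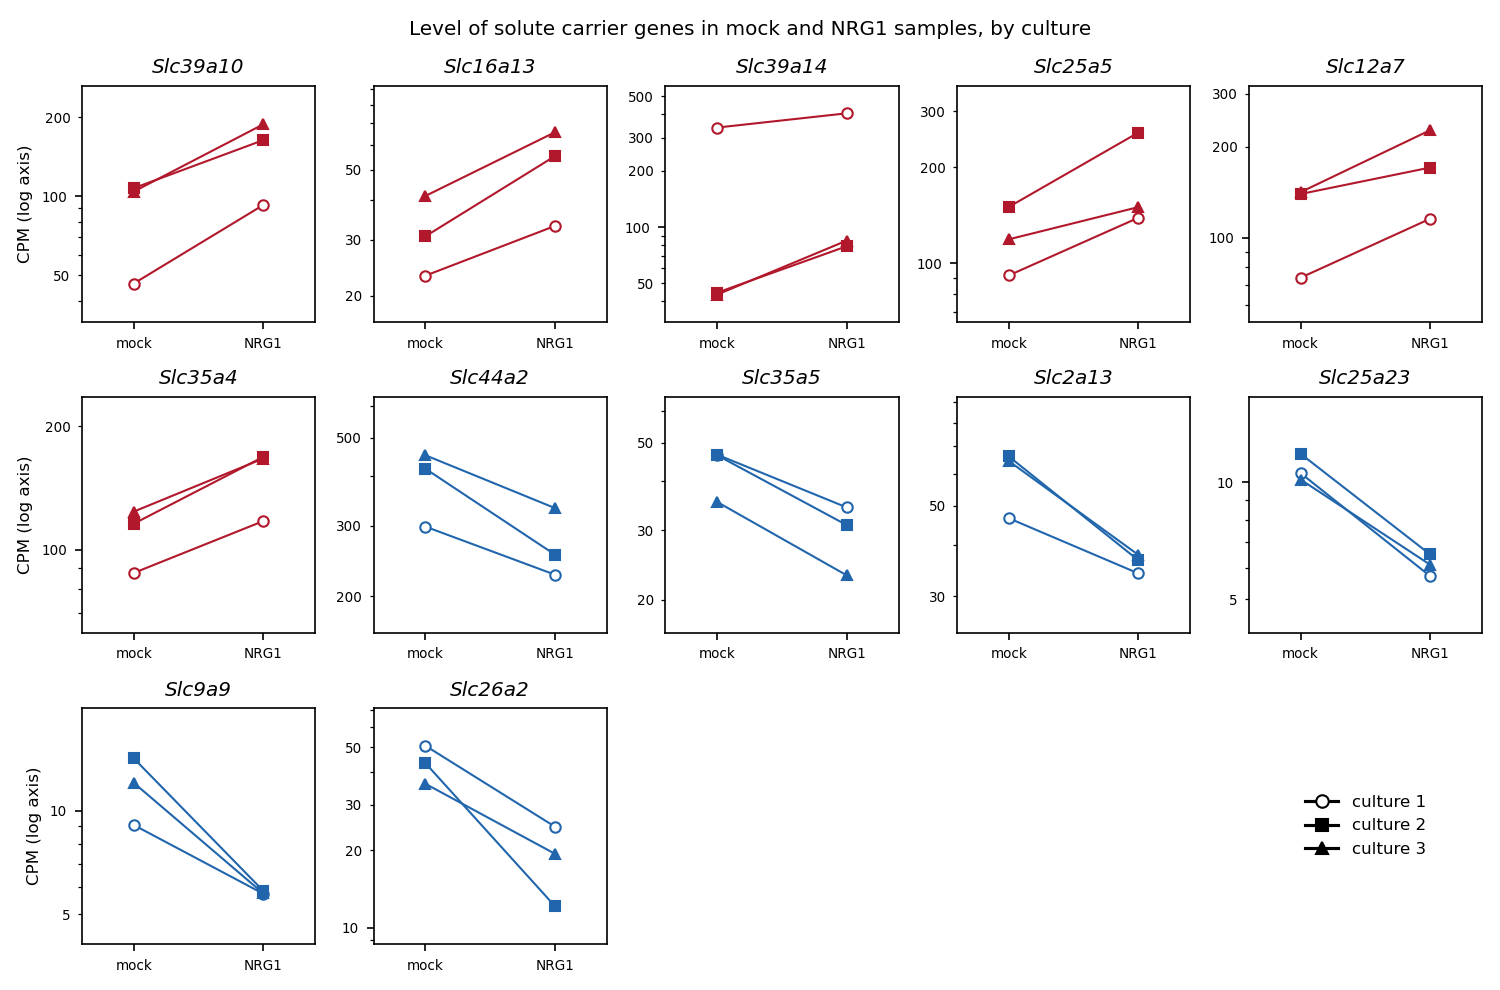
Normalised level (CPM, log scale) of called carriers in the 6 samples, with a line joining the mock and the NRG1 sample of each culture, red for genes that rose and blue for genes that fell. The lines of the 6 members that rose go up in all 3 cultures and those of the members that fell go down, while for Slc39a14 both samples of culture 1, at 340.3 and 406 CPM, lie far above the other 4, between 43.5 and 84.6 CPM.

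The mock and NRG1 samples did not overlap in CPM for 26 of the 125 members (20.8%), beside 20.1% of all genes tested. Among the 13 called members this held for 6, all of them genes that fell. Each of the 6 that rose overlapped between groups, and 5 of these 6 also differed between cultures. When culture 1 was left out, 7 of the 13 members were still called and 6 were not. All 13 kept their direction, which follows from their moving the same way in all 3 cultures. A further 5 members were called, giving 4 up and 8 down among 127 tested members (3.15% and 6.3%), beside 5.94% and 6.05% of all genes. Without the block no member was called, and 0 of all 9740 genes were. The smallest edgeR adjusted p was 0.189 among the members and 0.139 among all genes. In that fit 11 members (8.8%) had an unadjusted p under 0.05, beside 13.7% of all genes. With the block these were 45 members (36%) and 35.7% of all genes.

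For orientation on sequence, the promoters of 3 called carriers are shown, the zinc importer that rose with the smallest adjusted p and 2 carriers that moved in opposite directions and share a motif. The letters run from 250 bases before to 50 bases after the annotated start of the gene, in RefSeq on the GRCr8 assembly, 5′ to 3′ on the strand of the gene, and capitals mark the E-box CACGTG, a site that basic helix-loop-helix factors are known to bind.
Slc39a10, rose, chr9:62405183-62405482, plus strand: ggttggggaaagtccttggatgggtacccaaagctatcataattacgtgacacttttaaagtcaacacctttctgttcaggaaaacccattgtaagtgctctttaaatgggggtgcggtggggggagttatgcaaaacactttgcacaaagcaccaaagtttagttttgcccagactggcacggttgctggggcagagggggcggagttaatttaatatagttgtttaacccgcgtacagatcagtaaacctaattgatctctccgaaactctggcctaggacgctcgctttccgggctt
Slc12a7, rose, chr1:31354576-31354875, minus strand: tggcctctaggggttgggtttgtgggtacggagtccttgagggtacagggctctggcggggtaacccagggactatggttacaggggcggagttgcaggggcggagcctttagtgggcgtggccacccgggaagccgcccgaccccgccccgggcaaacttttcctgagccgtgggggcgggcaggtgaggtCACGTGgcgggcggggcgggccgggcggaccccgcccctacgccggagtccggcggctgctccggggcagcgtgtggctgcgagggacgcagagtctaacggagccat
Slc35a5, fell, chr11:69159185-69159484, plus strand: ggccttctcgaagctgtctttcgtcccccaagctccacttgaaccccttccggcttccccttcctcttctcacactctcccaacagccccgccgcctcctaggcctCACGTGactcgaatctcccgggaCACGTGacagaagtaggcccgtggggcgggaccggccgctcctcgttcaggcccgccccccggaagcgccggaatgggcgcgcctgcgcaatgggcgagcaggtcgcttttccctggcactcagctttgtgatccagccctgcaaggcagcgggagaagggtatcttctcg
The Slc39a10 window held no E-box, Slc12a7 held 1 and Slc35a5 held 2. The palindromic E-box, read on both strands, was present in 22 of 208 promoters of members (10.6%) and in 6.42% of the 33469 promoters of the table. The cAMP response element TGACGTCA was in 2.4% of member promoters and 1.83% of all, and the core of the metal response element, TGCACNC or TGCGCNC, in 32.7% and 24.2%. Among the 103 promoters of tested members, from which the called ones come, the shares were 13.6%, 4.85% and 38.8% for these motifs in that order. Of the 13 called members 10 had a promoter in the table, and the E-box was in 3 of these, Slc26a2, Slc12a7 and Slc35a5. Neither of the other motifs was in the Slc39a10 window, and Slc25a23 was the called member with a metal response element core. A match or its absence is a description of these letters only.

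Of the 23 metal carriers tested 2 rose, both for zinc, where 6.31% of all genes rose. The Slc39 family, whose ZIP proteins bring zinc and related metals into the cytosol, had 11 of 14 genes tested. Log2 fold changes were positive in 9 of the 11 and negative in 18.2%, beside 52.8% negative over all genes. Their median was 0.25, beside −0.03, and 2 genes rose. In the Slc30 family, most of whose ZnT proteins move zinc out of the cytosol, 6 of 10 genes were tested. Of these 5 had negative changes (83.3%), with a median of −0.12 over the 6. No test compared the families. For each count by family or list below, the background over all tested genes was 6.31% that rose, 5.51% that fell and 52.8% with a negative value.

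Slc39a10, which encodes the plasma membrane zinc importer ZIP10, measured 46.5, 107 and 104 CPM in mock cultures 1, 2 and 3 and 92.7, 164 and 188 CPM after NRG1. Every culture rose, and the groups overlapped because culture 1 was low in both conditions. The log2 fold change was 0.81 ± 0.12 (SE, n = 3 pairs), with an edgeR adjusted p of 0.000362, and the gene stayed called whichever culture was left out. An annotated long non-coding RNA overlaps this gene, and the library kit does not mark strand.

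Slc39a14 encodes ZIP14, an importer of zinc, iron and manganese. Its mock levels of 340.3, 44.5 and 43.5 CPM became 406, 78.9 and 84.6 CPM. Culture 1 was far above the others in both conditions and rose least, with a log2 ratio of 0.25 compared with 0.82 and 0.96 in cultures 2 and 3. The fit gave 0.67 ± 0.14 (edgeR adjusted p = 0.00449), and 0.90 ± 0.18 without culture 1 (adjusted p = 3.08e-05). Without culture 2 or culture 3 the adjusted p was 0.0165 and 0.0502.

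The other ZIP genes moved less. Slc39a1 (ZIP1), with the most counts of its family, had 338, 249 and 329 CPM in mock and 332, 247 and 276 CPM in NRG1 samples, with a log2 fold change of −0.10 ± 0.12 (edgeR adjusted p = 0.596). Slc39a13 (ZIP13), an importer of the secretory pathway, had a log2 fold change of 0.44 ± 0.13 with an edgeR adjusted p of 0.0249. Without culture 1 its value was 0.59 ± 0.18 and passed (adjusted p = 0.00816). Slc39a7 (ZIP7), which releases zinc from the endoplasmic reticulum, and Slc39a6 (ZIP6) had values of 0.33 ± 0.12 and 0.25 ± 0.13, with adjusted p-values of 0.0565 and 0.168. The only negative values besides Slc39a1 came from Slc39a8 (ZIP8), at −0.57 ± 0.28 (adjusted p = 0.164). Genes such as Slc39a13, Slc39a7, Slc39a6 and Slc39a8, and others in the paragraphs that follow, fell outside the naming rule and were added to fill in their family after the values were seen.

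In the Slc30 family Slc30a9, the member with the most counts, had 113, 119 and 108 CPM in mock and 98.4, 106 and 106 CPM in NRG1 samples, which did not overlap but lay close together (log2 fold change −0.13 ± 0.12, edgeR adjusted p = 0.453). Slc30a1 (ZnT1), the zinc exporter of the plasma membrane, was at −0.29 ± 0.13 (adjusted p = 0.133). Of the zinc buffering and sensing genes 3 of 8 were tested and had a median of −0.36. The metallothionein Mt1a was at −1.03 ± 0.31 (adjusted p = 0.0281), the metallothionein Mt2A at 0.10 ± 0.25 (adjusted p = 0.806) and the zinc-sensing factor Mtf1 at −0.36 ± 0.22 (adjusted p = 0.259). The copper carriers Slc31a1 and Slc31a2 both had negative values, −0.38 ± 0.15 and −0.60 ± 0.18 (adjusted p = 0.0793 and 0.0247). Slc48a1, which moves haem out of lysosomes, was at −0.55 ± 0.14 (adjusted p = 0.0132) and passed without culture 1 at −0.75 ± 0.20 (adjusted p = 0.00195).

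The sulfate carrier Slc26a2 had the largest change of the called members. It encodes the sulfate exchanger that supplies the sulfation of proteoglycans, and its loss is known to cause skeletal dysplasias. The gene measured 50.8, 43.5 and 36.2 CPM in mock cultures and 24.7, 12.1 and 19.4 CPM after NRG1. Every NRG1 sample lay below every mock sample, and the lowest was NRG1 culture 2. The fit gave a log2 fold change of −1.23 ± 0.17 (SE, n = 3 pairs), with an edgeR adjusted p of 0.000200, the smallest among the members. Leaving out culture 1 gave −1.33 ± 0.21 (adjusted p = 1.48e-08), and without culture 2 the gene was still called by p while its change no longer exceeded 2-fold. The second sulfate carrier tested, Slc26a1, had a value of 0.14 ± 0.25, and the anion exchangers Slc26a6 and Slc26a10 had −0.10 ± 0.14 and −0.57 ± 0.33 (adjusted p = 0.730, 0.646 and 0.232). Of the 5 genes of sulfate activation listed, 4 were tested and 1 rose. This was Bpnt1, a phosphatase that clears a by-product of sulfation, at 44.5, 35.5 and 38.7 CPM in mock and 53.6, 71.3 and 56.5 CPM in NRG1 samples, with a log2 fold change of 0.60 ± 0.15 (edgeR adjusted p = 0.00859). Its adjusted p was 0.0294 without culture 2 and 0.0204 without culture 3. Papss1, which makes the sulfate donor, was at −0.02 ± 0.12 (adjusted p = 0.931).

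Potassium-chloride cotransporters let both ions leave the cell together and so lower cell volume and intracellular chloride. Slc12a7 (KCC4) went from 73.8, 139.5 and 142 CPM to 116, 171 and 227 CPM. It rose in each culture, culture 1 was the lowest in both conditions, and the groups overlapped. The fit gave 0.54 ± 0.12 (edgeR adjusted p = 0.00655), which became 0.0347 without culture 1 and 0.0645 without culture 3. Slc12a4 (KCC1), the family member with the most counts, did not move the same way in the 3 cultures, with 198, 194 and 189 CPM in mock and 215, 154 and 186 CPM in NRG1 samples (log2 fold change −0.08 ± 0.13, adjusted p = 0.702). Slc12a2 (NKCC1), which loads cells with chloride, was at −0.39 ± 0.13 and Slc12a9 at −0.41 ± 0.14 (adjusted p = 0.0511 and 0.0401).

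All 6 kinases listed as controllers of cation-chloride cotransport were tested, and 2 fell, where 5.51% of all genes did. Over all companion lists 5 of 72 tested genes fell. Wnk4, a kinase at the top of that cascade, went from 24.7, 57.7 and 44.5 CPM to 11.6, 21.5 and 33.2 CPM, overlapping between groups, with a log2 fold change of −0.95 ± 0.18 (edgeR adjusted p = 0.00171, and 0.0114 without culture 2). Stk39 (SPAK), the kinase that WNK kinases activate, went from 50.6, 67.8 and 53.6 CPM to 41.1, 39.2 and 37.1 CPM without overlap, with −0.54 ± 0.13 (edgeR adjusted p = 0.00929). Stk39 had an adjusted p of 0.0268 without culture 2, 0.0606 without culture 3 and 0.0173 with DESeq2. Wnk1 and Oxsr1 had values of 0.13 ± 0.13 and −0.04 ± 0.12 (adjusted p = 0.496 and 0.854).

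Exchangers of protons, bicarbonate and calcium gave mixed values. Slc9a9 (NHE9), a sodium/proton exchanger that raises the pH of endosomes, had 9.09, 14.2 and 12.1 CPM in mock and 5.73, 5.84 and 5.75 CPM in NRG1 samples. The NRG1 samples were nearly alike and all below the mock samples. Its log2 fold change was −1.02 ± 0.20 (edgeR adjusted p = 0.00270), with adjusted p-values of 0.0142 without culture 2 and 0.0311 without culture 3. Counts for this gene ran from 43 to 153 per library, and a long non-coding RNA is annotated over it.

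Among the members with the largest changes that were not called, Slc9a5 (NHE5) had 4.54, 3.11 and 3.31 CPM in mock and 9.47, 3.48 and 7.81 CPM in NRG1 samples. It was higher in each culture, barely so in culture 2 (log2 fold change 0.91 ± 0.26, edgeR adjusted p = 0.0207), and it passed without culture 2 (1.16, adjusted p = 0.00592). Slc4a3, a chloride/bicarbonate exchanger, had 27.1, 6.07 and 6.62 CPM in mock and 22.5, 2.02 and 3.16 CPM in NRG1 samples. Culture 1 stood above the rest, and the value of −0.80 ± 0.24 (adjusted p = 0.0251) became −1.26 ± 0.33 without culture 1 (adjusted p = 0.00160). Slc24a5, a potassium-dependent sodium/calcium exchanger of intracellular organelles, had the most negative fitted value of all members, −1.29 ± 0.42 (adjusted p = 0.0399). This rested on 13, 11 and 26 counts in mock and 2, 7 and 16 counts in NRG1 samples, which is near the limit of these libraries, where 3 counts are 0.194 to 0.444 CPM. Slc24a3 of the same family was at −0.51 ± 0.13 (adjusted p = 0.0113), and the sodium/bicarbonate carrier Slc4a7 at 0.52 ± 0.15 (adjusted p = 0.0247).

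Of the 14 genes of bicarbonate and pH handling listed, 7 were tested and 2 fell, where 5.51% of all genes did. Car5b, a mitochondrial carbonic anhydrase, went from 27.4, 24.4 and 17.6 CPM to 18.5, 13.3 and 7.55 CPM (log2 fold change −0.88 ± 0.17, edgeR adjusted p = 0.00193), and the groups overlapped. Car11, a relative of these enzymes that lacks their catalytic activity, went from 32.2, 37.4 and 44.04 CPM to 19.2, 24.4 and 26.9 CPM without overlap (−0.69 ± 0.13, adjusted p = 0.00200). Without culture 3 the adjusted p was 0.0359 for Car5b and 0.0291 for Car11.

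**Figure D2:**
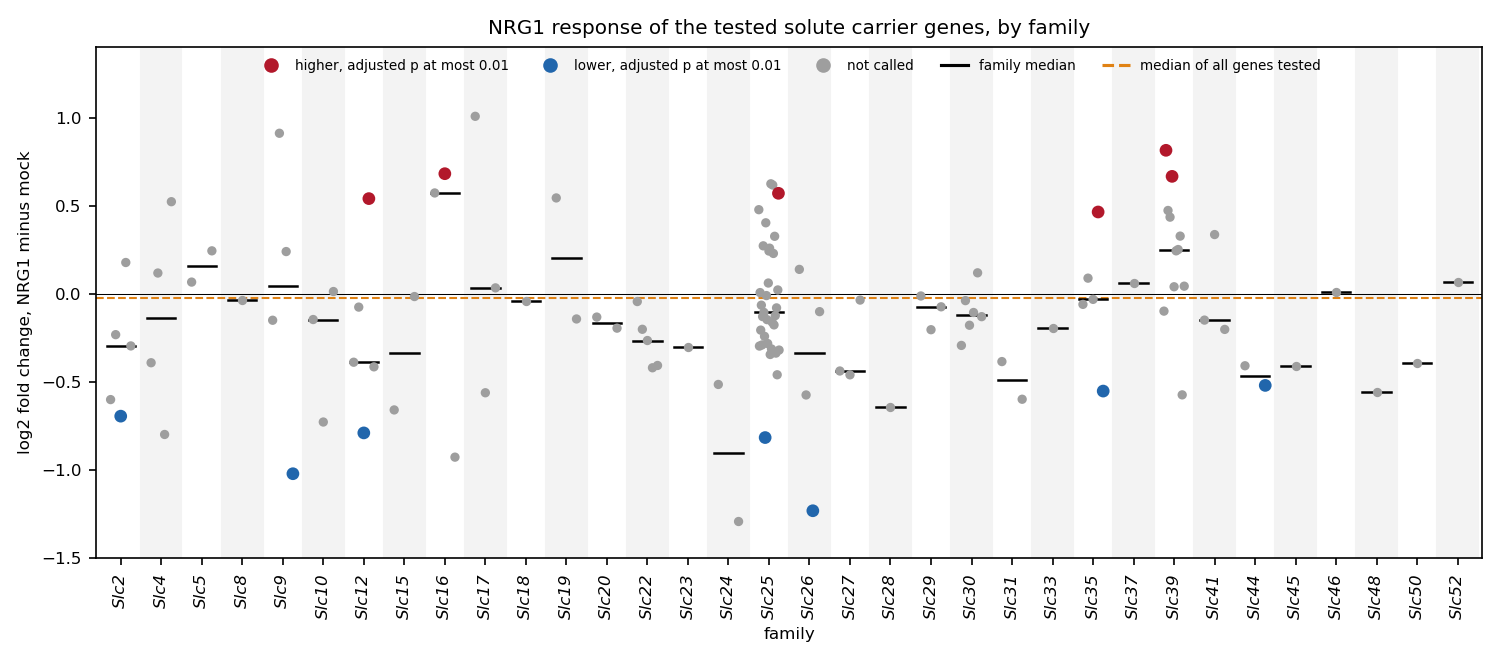
Log2 fold change, NRG1 to mock, of each tested member, placed by family along the other axis, with called members coloured and the median of each family marked. The Slc39 family lies mostly above 0 (9 of 11 tested members), the 5 tested Slc22 members all lie below it, and the 33 tested Slc25 members spread on both sides. Over all genes tested 52.8% lay below 0.

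Sugar and inositol carriers gave 10 tested members of 28 and 1 call. Slc2a13, which takes up myo-inositol together with protons, had 46.6, 66.1 and 64.5 CPM in mock and 34.1, 36.8 and 37.9 CPM in NRG1 samples. It fell in each culture without overlap between the groups, the change being smallest in culture 1, and the log2 fold change was −0.69 ± 0.13 (edgeR adjusted p = 0.00186). Leaving out culture 1 gave −0.80 ± 0.19 (adjusted p = 0.000382), and without culture 3 the adjusted p was 0.0220. Slc5a3, the sodium-coupled importer of the same solute, was at 0.07 ± 0.19 (adjusted p = 0.830), with 42.2, 147 and 96.7 CPM in mock and 48.5, 92.8 and 152 CPM in NRG1 samples. The glucose and sugar carriers Slc2a6, Slc2a8, Slc2a10 and Slc2a12 had values of 0.18, −0.30, −0.60 and −0.23, with adjusted p-values of 0.159 or more. Without culture 1 Slc2a10 was at −1.20 ± 0.40 (adjusted p = 0.0200) and Slc2a8 at −0.45 ± 0.20 (adjusted p = 0.111). The urate and hexose carrier Slc2a9 was not tested, and its counts of 99, 1 and 4 in mock and 84, 2 and 10 in NRG1 samples came almost wholly from culture 1.

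Mitochondrial carriers formed the largest family, with 33 of 40 Slc25 genes tested, 13 positive and 20 negative, a median of −0.11 and 1 call each way. Slc25a5 (ANT2), which exchanges ADP for ATP across the inner membrane, had 91.5, 150.2 and 119 CPM in mock and 139, 257 and 150.02 CPM in NRG1 samples. It rose in all cultures, least in culture 3, and the groups overlapped. Its log2 fold change was 0.57 ± 0.12 (edgeR adjusted p = 0.00480), with adjusted p-values of 0.0136 without culture 1 and 0.0156 without culture 2. This gene has processed copies in the genome and an overlapping non-coding RNA, which makes its counts less certain. The sister gene Slc25a4 (ANT1), with the most counts of the family, measured 398, 363 and 443 CPM in mock and 474, 517 and 515 CPM in NRG1 samples. Its groups did not overlap, but the change of 0.33 ± 0.12 did not pass (adjusted p = 0.0707).

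Slc25a23, a calcium-sensitive carrier that exchanges ATP-magnesium for phosphate, fell from 10.6, 11.8 and 10.2 CPM in mock to 5.73, 6.52 and 6.13 CPM in NRG1 samples. The groups did not overlap, and the 3 cultures lay close together in each condition. The log2 fold change was −0.82 ± 0.19 (edgeR adjusted p = 0.00805), on 43 to 129 counts per library. The call was lost with DESeq2 (adjusted p = 0.0352) and without culture 1, 2 or 3 (0.0216, 0.0234 and 0.0559). Its relative Slc25a24 had a value of opposite sign, 0.40 ± 0.12 (adjusted p = 0.0261), and Slc25a25 was at −0.01 ± 0.15 (adjusted p = 0.968). Below the threshold on the positive side lay the citrate carrier Slc25a1 at 0.48 ± 0.12 (adjusted p = 0.0131) and the iron carrier mitoferrin 1, Slc25a37, at 0.62 ± 0.17 (adjusted p = 0.0175), while the phosphate carrier Slc25a3 was at 0.24 ± 0.12 (adjusted p = 0.174). Of 14 other carriers and pores of this membrane 10 were tested. Their median was −0.12 and the smallest adjusted p was 0.0625, for the cation/proton exchanger Letm1 at 0.35 ± 0.13. The pyruvate carrier subunits Mpc1 and Mpc2 lay at −0.32 ± 0.14 and −0.28 ± 0.15 (adjusted p = 0.108 and 0.206).

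Among carriers of lipid precursors 1 member fell. The class holds the choline transporter-like family Slc44, the fatty acid transport family Slc27 and the acetyl-CoA carrier Slc33a1, and all 6 tested members had negative values, with a median of −0.42. Slc44a2 went from 299, 418 and 452 CPM in mock to 226, 254 and 333 CPM in NRG1 samples. Each culture fell, with overlap because mock culture 1 was low. The log2 fold change was −0.52 ± 0.12 (edgeR adjusted p = 0.00784), and the adjusted p was 0.0119, 0.0263 and 0.0497 without culture 1, 2 and 3. Slc44a1 (CTL1), an importer of choline for phosphatidylcholine, was at −0.41 ± 0.13 (adjusted p = 0.0341) and Slc27a1, a fatty acid importer, at −0.44 ± 0.13 (adjusted p = 0.0233). The 8 genes of choline use were all tested and had a median of −0.16. Choline kinase alpha, Chka, had the smallest adjusted p of these (−0.42 ± 0.15, adjusted p = 0.05005).

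The 5 Slc35a genes, which carry nucleotide sugars into the Golgi apparatus or are related to such carriers, were all tested. Slc35a4, the most counted, had 87.7, 116 and 124 CPM in mock and 117, 168 and 167 CPM in NRG1 samples, a rise in each culture with overlap between groups. Its log2 fold change of 0.46 ± 0.12 was the smallest to be called (edgeR adjusted p = 0.00991), and the adjusted p was 0.0356, 0.0190 and 0.04999 without culture 1, 2 and 3. Another protein-coding gene is annotated over Slc35a4. Slc35a5 fell from 46.6, 46.5 and 35.4 CPM to 34.3, 30.9 and 23.05 CPM, with mock culture 3 just above NRG1 culture 1. Its value was −0.55 ± 0.13 (edgeR adjusted p = 0.00717), with 0.0175 in DESeq2 and 0.0174, 0.0108 and 0.0829 without culture 1, 2 and 3. The carriers of CMP-sialic acid, UDP-galactose and UDP-N-acetylglucosamine, Slc35a1, Slc35a2 and Slc35a3, had values of −0.06 ± 0.14, 0.09 ± 0.12 and −0.03 ± 0.15.

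Of 21 related genes with other symbols, Slc35b to Slc35g, 16 were tested and had a median of 0.13. Slc35e4, of unknown substrate, rose from 49.2, 82.3 and 106 CPM to 80.7, 119.6 and 145 CPM (0.56 ± 0.12, edgeR adjusted p = 0.00373, and 0.0321 without culture 1 and 0.0115 without culture 3). Slc35f1, also an orphan, fell from 57.6, 199 and 160.3 CPM to 31.6, 88.6 and 90.3 CPM (−0.96 ± 0.12, adjusted p = 0.000105). Both genes moved in every culture and both were lowest in culture 1.

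Monocarboxylate-like carriers added 1 riser. Slc16a13 (MCT13) had 23.1, 30.8 and 41.3 CPM in mock and 33.2, 55.2 and 65.7 CPM in NRG1 samples, rising in each culture with overlap between groups. The log2 fold change was 0.68 ± 0.13 (edgeR adjusted p = 0.00209), and 0.75 ± 0.19 without culture 1 (adjusted p = 0.00116). Without culture 3 the adjusted p was 0.0130. Its neighbour Slc16a11 overlaps it in the GRCr8 annotation, so reads of the 2 cannot be fully told apart, and was at 0.57 ± 0.20 (adjusted p = 0.0532). Slc16a6 was at −0.93 ± 0.44 (adjusted p = 0.145) on 4 to 16 counts per library.

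Of 11 tested carriers of organic anions and cations 8 lay below 0, and of 4 vesicle and lysosome carriers 2 did, beside 64.8% of all tested members. All 5 tested Slc22 genes of 19 had negative values, with a median of −0.26, and Slc22a23, an orphan with the most counts of that family, went from 309, 562 and 613 CPM to 189, 443 and 528 CPM. It was lower after NRG1 in each culture, most in culture 1 (log2 fold change −0.42 ± 0.13, edgeR adjusted p = 0.0330). Slc17a3 had the largest positive fitted value of all members, 1.01 ± 0.40 (adjusted p = 0.0827), from only 2, 11 and 10 counts in mock and 6, 24 and 27 in NRG1 samples. Slc17a5, which exports sialic acid from lysosomes, was at −0.56 ± 0.15 (adjusted p = 0.0133) and passed without culture 1 at −0.71 ± 0.21 (adjusted p = 0.00547). Of the Slco organic anion transporters, a family outside the symbol rule, 1 of 15 was tested, Slco3a1 at −0.19 ± 0.14 (adjusted p = 0.338).

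Nucleoside and vitamin carriers showed smaller values. The nucleoside carriers Slc28a2, Slc29a1, Slc29a3 and Slc29a4 were all negative, at −0.64 ± 0.37, −0.01 ± 0.20, −0.20 ± 0.17 and −0.07 ± 0.18, with adjusted p-values of 0.232 or more. Of 10 nucleoside salvage genes 9 were tested and 1 rose. Uck2, which phosphorylates uridine and cytidine, went from 15.8, 15.2 and 19.9 CPM to 29.6, 34.2 and 32.9 CPM without overlap, with a log2 fold change of 0.92 ± 0.15 (edgeR adjusted p = 0.000595). Among vitamin carriers the folate importer Slc19a1 was at 0.54 ± 0.18 (adjusted p = 0.0369), the vitamin C importer Slc23a2 at −0.30 ± 0.12 (adjusted p = 0.0963) and the biotin and pantothenate importer Slc5a6 at 0.24 ± 0.13 (adjusted p = 0.209). The 10 ancillary subunits and regulators listed gave 8 tested genes with adjusted p-values of 0.355 or more, among them the carrier partner Bsg at −0.02 ± 0.13. Over all lists, 72 of 111 companion genes were tested. By the adjusted p alone 3 of the 72 rose and 5 fell, where 6.31% and 5.51% of all genes did. No list was tested as a set.

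**Figure D3:**
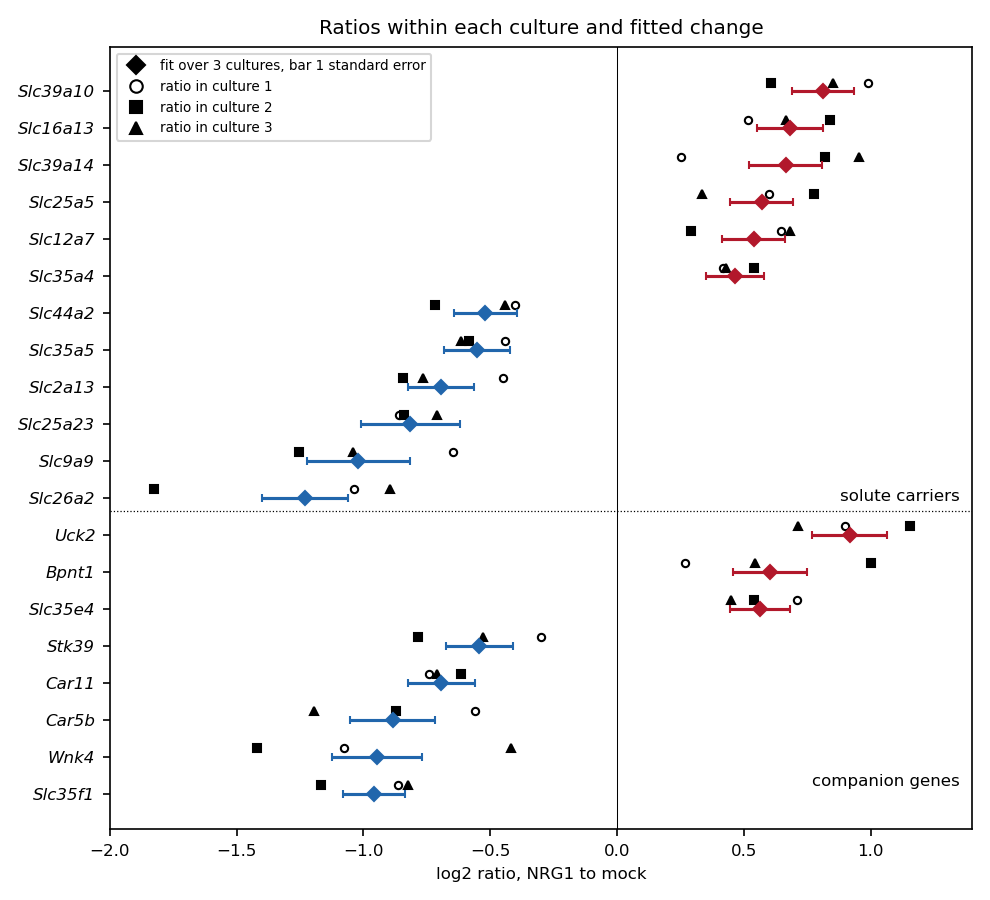
Log2 ratio of NRG1 to mock in each of the 3 cultures (open circles, squares and triangles) and the fitted log2 fold change with 1 standard error (diamonds) for called carriers and, under the dotted line, the 8 called companion genes. Every ratio lies on the side of its fitted value, and the cultures spread most for Wnk4, Slc26a2 and Bpnt1. Red marks genes that rose and blue genes that fell.

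Cultures differed in more carriers than NRG1 regulated. In the same fit, 34 of the 125 members (27.2%) differed between cultures at an adjusted p of 0.01, where 23.4% of all genes did. In all 34, culture 1 was an extreme, the highest in 19 and the lowest in 15, as it was for 96.0% of the 2278 genes of the transcriptome that differed. The sums of the fibroblast and of the smooth muscle markers given above were also highest in culture 1, and their part in this difference was not tested.

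Slc29a1 (ENT1), the main plasma membrane carrier of adenosine, differed most. It had 1145, 13 and 48 counts in mock and 1435, 14 and 33 counts in NRG1 samples, so 96.0% of its counts came from culture 1. Mean levels were 172, 1.75 and 2.96 CPM in cultures 1, 2 and 3 (edgeR adjusted p = 1.89e-11), while NRG1 and mock did not differ detectably. Slc39a14 followed with 373, 61.7 and 64.0 CPM (adjusted p = 8.47e-09). Slc22a18, an orphan organic cation carrier, had 15.1, 0.521 and 1.19 CPM (adjusted p = 4.52e-08), and Slc8a1 (NCX1), which exports calcium in exchange for sodium, had 40.0, 7.84 and 5.54 CPM (adjusted p = 8.46e-08).

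Slc29a4 (PMAT), a carrier of monoamines and adenosine, ran the other way, with 2.60, 12.4 and 25.3 CPM in cultures 1, 2 and 3 (edgeR adjusted p = 2.85e-07). It was also the member that differed between cultures 2 and 3 when culture 1 was left out (adjusted p = 0.000314), where 2.47% of all genes differed. Culture 1 was thus the highest for Slc29a1 and the lowest for Slc29a4, while culture 3 lay above culture 2 in both. Of the 13 members called for NRG1, those that also differed between cultures were Slc39a10, Slc39a14, Slc12a7, Slc16a13 and Slc25a5. Slc39a14 was highest in culture 1 and the other 4 lowest.

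**Figure D4:**
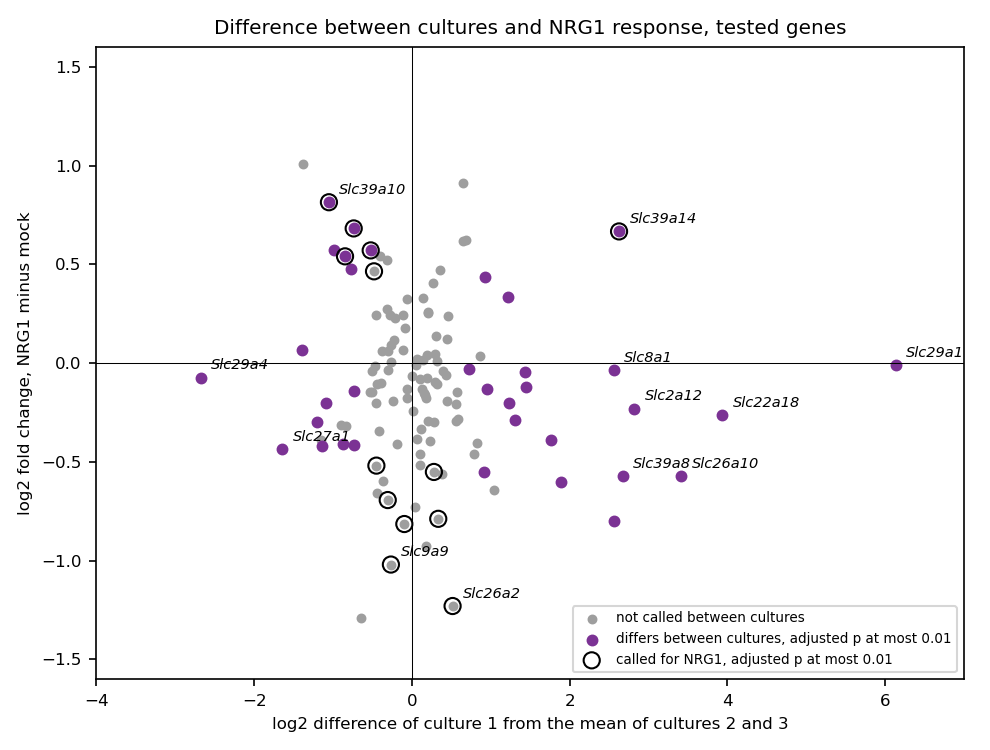
Each point is 1 of the 125 tested members, with the log2 difference in level of culture 1 from the mean of cultures 2 and 3 across and the log2 fold change of NRG1 against mock upward. The 34 members that differed between cultures are purple and the 13 called for NRG1 are ringed, and Slc29a1 lies farthest to the right, at 6.14, with a log2 fold change of −0.01.

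Among the 82 members with few counts, Slc13a5, the citrate importer of the plasma membrane, had 0, 0 and 2 counts in mock and 2, 7 and 31 counts in NRG1 samples. The counts were higher with NRG1 in each culture, and the gene was called only when the filter on low counts was dropped (edgeR adjusted p = 0.00106), with every mock library under the floor of 3 counts. The urea carrier Slc14a1 had 23 and 17 counts in the mock and NRG1 samples of culture 1 and 0 in the other 4 samples.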

How the data were processed

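Poly(A) RNA of 3 mock and 3 NRG1 samples was analysed. Per the labels and methods, the authors aligned reads to rn5 with TopHat2 2.0.10 and used HTSeq to count those on RefSeq genes, and the deposited values are raw counts with no normalization. The 5 summary lines of each file, 50.1% to 53.0% of the alignments, were kept apart. The members, the gene lists and the rule for named genes were chosen with earlier results of these data known. The rule took every called member with 1 direction in the 3 cultures, the member with most counts in each family with 5 or more tested, the 5 largest changes not called, the 5 smallest p-values between cultures and the called companion genes.

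Counts were fitted with edgeR 4.0.16 in R 4.3.3 (quasi-likelihood test, TMM normalization, filterByExpr at a minimum count of 10). The replicate number entered as a block, following the paired analysis of the authors, who used DESeq2. Calls required an adjusted p (Benjamini-Hochberg over 9740 genes) of at most 0.01, with or without an absolute log2 fold change over 1. The SE was obtained by dividing the log2 fold change by √F. Cultures were compared by an F test of the replicate coefficients. CPM are TMM-scaled, and ratios within cultures used a prior count of 2. The floor of 3 counts was 0.194 to 0.444 CPM, counting error only. The numbers come from independent experiments per the labels. Deviations from group means, correlated across genes, had r = 0.91, 0.67 and 0.81 for samples of the same number and −0.80 to 0.51 for different numbers.

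Alternatives were no block, DESeq2 1.42.0 with the block, RLE normalization, other filters, robust empirical Bayes, an adjusted p of 0.05 and leaving out each culture. The scripts were tested on simulated counts. Levels were not compared between genes, since gene lengths were not used here. Of the 247 symbols 246 matched a current RefSeq symbol and 1 a synonym, and 201 members had a promoter. The PCR of the study was left out. Some genes counted in the totals are not reported here by name.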

Additional observations from a re-analysis of the deposited data

How the results depend on the processing

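Without the replicate block, which the pairing of samples by culture calls for, 0 members rose and 0 fell by the adjusted p alone, and 0 fell past both thresholds. Of all 9740 genes 0 were called in that fit as well. An unadjusted p under 0.05 was found for 11 members (8.8%), beside 13.7% of all genes. In that fit Slc29a1 changed sign, to 0.29, and with RLE normalization it was 0.00118. With no low-count filter 11 members rose and 13 fell, 1 of them (Slc13a5) rose past both thresholds, and 52 differed between cultures (5.31%, 6.28% and 25.1% of members, beside 6.46%, 6.53% and 27% of all genes). At an adjusted p of 0.05, 13 rose, 17 fell and 53 differed between cultures (10.4%, 13.6% and 42.4%, beside 11.5%, 11.7% and 36.3%). Leaving out 1 culture at a time gave 2 to 5 risers, 2 to 8 members that fell, 0 to 1 up and 0 to 4 down past both thresholds and 1 to 59 differing between cultures. In that order the member shares were 1.5% to 3.7%, 1.5% to 6.3%, 0% to 0.741%, 0% to 3.15% and 0.787% to 43.7%. The shares of all genes were 4.02% to 5.94%, 2.49% to 6.05%, 1.29% to 2.04%, 1.18% to 3.01% and 2.47% to 36.6%. Both calls past the 2 thresholds were lost without culture 2, and that of Slc9a9 without culture 3. Of the 13 called members 7, 6 and 4 were kept without culture 1, 2 and 3, and 11 with DESeq2. All 13 were kept with RLE normalization, with no filter, with at least 10 counts in every sample and with robust empirical Bayes. All 13 kept their direction under every alternative run. That is no separate test, since each moved the same way in all 3 cultures and every alternative used the same samples. Leaving out culture 1 turned the sign of 12 tested members, none of them called. Of the members in the rule for named genes, leaving out a culture turned 4, Slc29a1 (−0.64 to 0.26), Slc12a4 (−0.17 to 0.0537), Slc39a1 (−0.14 to 0.00343) and Slc8a1 (−0.17 to 0.21). With a culture left out 4 samples remain, 1 residual degree of freedom, and the spread is borrowed across genes. Members with few counts could not be assessed at this depth.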
